A study of Mus musculus with 4 samples.

Results

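The response to deoxycorticosterone and salt (DOC/salt) was described in whole hearts of mice whose cardiomyocytes lack the mineralocorticoid receptor (CM-MRKO), by setting the array of DOC/salt-treated hearts against that of vehicle-treated hearts. A probe entered where it had a gene symbol and an intensity on both arrays above the 99th percentile of 1339 probes for odorant, vomeronasal and taste receptors, genes used mainly by sensory cells. That left 7719 probes of 6109 genes, out of 16593 genes named on the array, and 8 receptor probes were themselves among the 7719. The limit lay at an intensity of 121.6 on the DOC/salt array and 119.4 on the vehicle array. Just inside it were Trpm3 (121.7 with DOC/salt, 119.8 with vehicle) and Clec16a (121.7 and 121.1), and just outside it Lynx1 (134.1 and 119.4) and Psmd5 (132.6 and 119.4).

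CM-MRKO mice carried MR flox/flox and MLC2v Cre, in which Cre is expressed from the ventricular myosin light chain locus, and were given DOC/salt or vehicle for 8 days. Wild-type mice (WT) carried MR flox/flox without Cre and were given the same 2 treatments. All mice were C57Bl6, were 8 to 9 weeks old and had lost 1 kidney, so the vehicle groups too are uninephrectomised. Equal amounts of RNA from 8 hearts were pooled for each group and each pool was read on 1 array, so every difference below is an effect size with no replicate behind it, and no p-value can be given. Other cardiac cells keep the receptor in this model, and in whole-heart RNA fewer cells of a type and less RNA per cell cannot be told apart.

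The mineralocorticoid receptor is a nuclear receptor that binds aldosterone, deoxycorticosterone and glucocorticoids, and acts as a transcription factor. In kidney epithelium it is known for raising sodium uptake, and in the heart its activation under salt loading is known to bring inflammation, fibrosis and hypertrophy. Removing 1 kidney and giving a mineralocorticoid with salt is a standard way to provoke these changes in rodents.

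The genotype labels have no check in these data. Nr3c2, the gene of the receptor, had no probe under its name. Nr3c1, the glucocorticoid receptor gene, lay under the limit in every group, at 93.1 in CM-MRKO DOC/salt, 95.5 in CM-MRKO vehicle, 87.1 in WT DOC/salt and 90.1 in WT vehicle. Hsd11b2, the enzyme that inactivates glucocorticoids in mineralocorticoid target epithelium, was under the limit as well (89.4 on both CM-MRKO arrays), while 3 probes of Hsd11b1, which regenerates active glucocorticoid, were measured and differed by -0.34 to -0.15 on the log2 scale. Cardiomyocyte RNA was abundant, with Myl2, the ventricular light chain that lends its locus to Cre, at 21082.8 and 19023.6 in CM-MRKO DOC/salt and vehicle hearts.

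The CM-MRKO arrays were alike in brightness, with upper quartiles of 161.4 for DOC/salt and 152.4 for vehicle. Of the WT arrays, that of DOC/salt had 147.6 and that of vehicle 120.2, and the WT vehicle array had 7144 named probes above its own limit against 7931 to 8318 on the other 3. Every WT response given below rests on that dimmer array, whose part in it was not tested. The CM-MRKO response does not use it except in the shared normalization, and the response was also computed from the CM-MRKO arrays alone.

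The response of CM-MRKO hearts was small. Over the 6109 genes the log2 difference of DOC/salt minus vehicle, after background correction and quantile normalization, had a median of 0.0 and an SD of 0.19, and 95% of genes lay between -0.38 and 0.37, that is between 1.3-fold lower and 1.29-fold higher. In all, 5236 genes (85.7%) differed by less than 1.2-fold, and 3009 (49.3%) lay above 0. At a threshold of 1.5-fold, 14 genes (0.229%) were higher with DOC/salt and 21 (0.344%) were lower. On the deposited intensities, with no correction or scaling, 7 of the same genes were higher (0.115%) and 1 of them was lower (0.0164%), beside a median fold of 1.06 over all genes. In the same 6109 genes the WT response held 515 genes at least 1.5-fold higher (8.43%) and 222 lower (3.63%), with an SD of 0.44. The difference between the genotypes' responses was not tested.

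**Figure D1:**
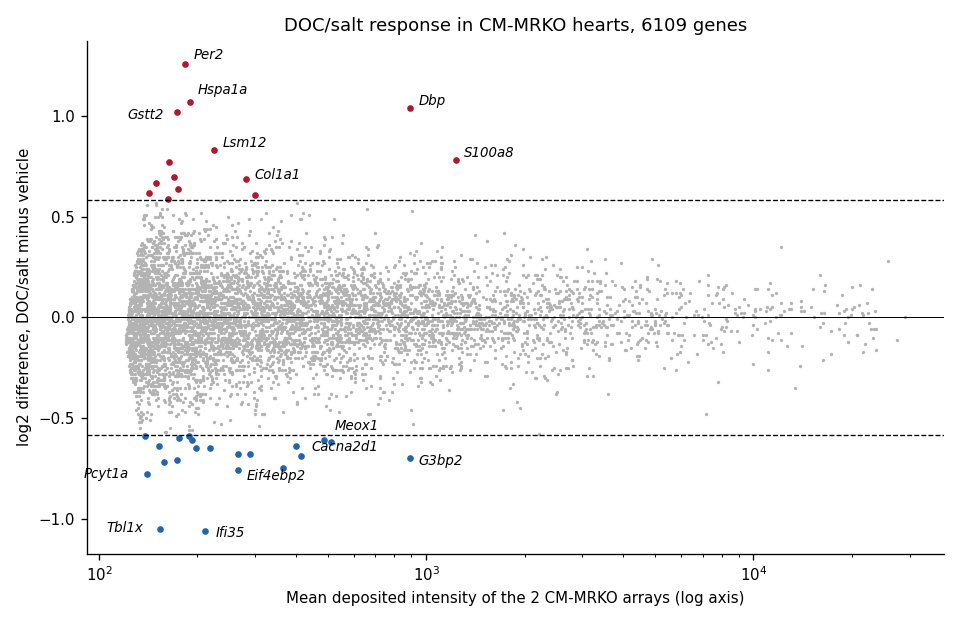
Log2 difference of DOC/salt minus vehicle in CM-MRKO hearts (vertical axis) against the mean deposited intensity of the DOC/salt and vehicle arrays (horizontal log axis), 1 point for each of 6109 genes. Dashed lines mark 1.5-fold, the 14 genes higher with DOC/salt are red and the 21 lower genes are blue, and the grey cloud is widest at the dim end.

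The 35 genes past 1.5-fold were dimmer than most. Their median intensity was 193.1 against 291.7 over all genes, and 26 of the 35 lay below the median. All 14 higher genes had their highest deposited intensity of all 4 groups in CM-MRKO DOC/salt hearts, as did 63.8% of all genes on this brightest array. Of the 21 lower genes, 19 had their highest intensity in CM-MRKO vehicle hearts, against 21.9% of all genes, and 2 their lowest in CM-MRKO DOC/salt hearts, against 0.213%. After normalization, 12 of the 14 higher genes were highest in CM-MRKO DOC/salt hearts, beside 19.1% of all genes. Of the 21 lower genes 18 were then highest in CM-MRKO vehicle hearts and 12 lowest in CM-MRKO DOC/salt hearts, beside 19.0% and 19.8% of all genes. These genes were picked by the contrast of the same arrays, which itself favours such an order, so nothing is read from the counts.

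**Figure D2:**
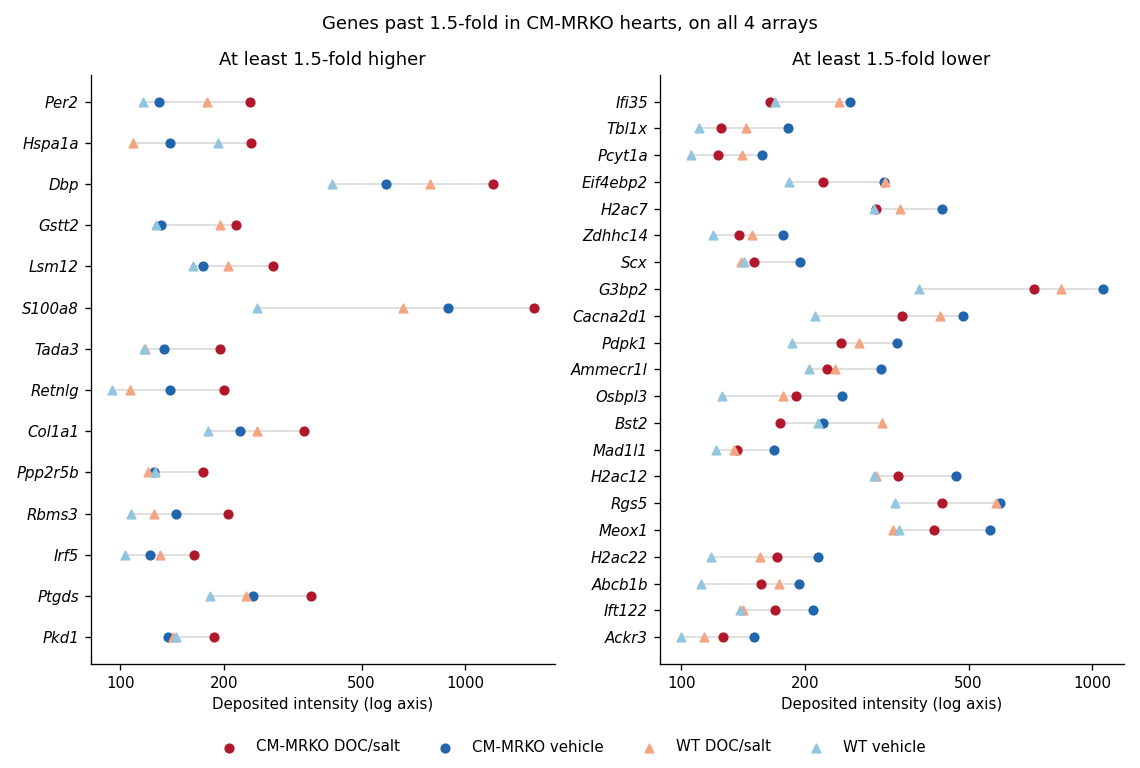
Deposited intensity (horizontal log axis) of the 14 genes at least 1.5-fold higher (left) and the 21 at least 1.5-fold lower (right) with DOC/salt in CM-MRKO hearts, in all 4 groups, circles for CM-MRKO and triangles for WT. Red circles lie at the right end of every row on the left, and blue circles lie at the right end of 19 of the 21 rows on the right.

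Genes of the circadian clock held the largest difference. Per2, a repressor of the clock's feedback loop, had an intensity of 237.7 in CM-MRKO DOC/salt hearts and 129.0 in CM-MRKO vehicle hearts, with 178.1 and 116.0 in WT DOC/salt and vehicle hearts. Both DOC/salt pools were thus brighter than both vehicle pools on this probe. Nothing is read from that order, since Per2 was named for its CM-MRKO difference and the WT vehicle array was dim. The CM-MRKO difference came to 2.39-fold. The second measured probe of Per2 differed by only 0.26 on the log2 scale in CM-MRKO hearts. Dbp, a transcription factor driven directly by the clock, had 1202.6 in CM-MRKO DOC/salt and 588.3 in CM-MRKO vehicle hearts (2.05-fold higher), and 789.1 and 409.2 in WT DOC/salt and vehicle hearts. It is among the brighter of the 35 genes, and its difference was nearly the same on deposited intensities, at 2.04-fold.

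Of the clock repressors 4 were measured, all of them above 0 and 1 past 1.5-fold. Their median log2 difference was 0.34, against 0.0 over all genes. Beside this list and those below, 49.3% of all genes lay above 0, 0.229% were at least 1.5-fold higher and 0.344% lower. Bhlhe40, which competes for the clock's binding sites, differed by 0.51, the heme receptor Nr1d1 by 0.17 and Per1 by 0.15. The clock outputs had a median of 0.36, with 3 of 4 above 0 and 1 past 1.5-fold. Tef, a relative of Dbp, differed by 0.40 on both of its probes, the deubiquitinase Usp2 by 0.33 and Nfil3, which opposes Dbp at shared sites, by -0.12. Of the activators, Clock differed by -0.15 and Rora by 0.02, while Arntl and Npas2 were under the limit. Ciart, another repressor, was not counted because its vehicle value was under the limit (139.4 with DOC/salt, 105.6 with vehicle). That probe read 94.0 and 96.0 in WT DOC/salt and vehicle hearts. A second Ciart probe was under the limit on both CM-MRKO arrays (116.0 and 100.6). Cry2 was likewise above the limit only with DOC/salt (126.3 and 110.3), and Per3, Cry1, Nr1d2 and Bhlhe41 were under it on both. The hour at which hearts were taken is not given in the sources used here, and its part in these values was not tested.

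A single heat shock gene, read by 1 measured probe, came next in size. Hspa1a, an inducible HSP70, had 239.4 in CM-MRKO DOC/salt and 139.4 in CM-MRKO vehicle hearts, a 2.11-fold difference, against 108.5 in WT DOC/salt and 191.3 in WT vehicle hearts. The order of treatments was thus opposite in the 2 genotypes, and the WT DOC/salt value was under the limit of 113.5. Its near-identical copy Hspa1b may contribute to the probe's signal. Hsph1, an HSP70 exchange factor, had 785.3 and 532.1 in CM-MRKO DOC/salt and vehicle hearts and differed by 0.54. The co-chaperone Stip1 differed by 0.30, the small heat shock protein Hspb1 by 0.22, Ahsa1 of the HSP90 cycle by 0.20 and Bag3 by 0.18. Over 16 cytosolic heat shock genes the median was 0.14, with 10 above 0, 1 past 1.5-fold and Hspb7 and Hspb8 lowest at -0.12. All 6 mitochondrial chaperones were above 0, as were 49.3% of all genes, and their median was also 0.14. Hspd1 (HSP60) at 0.34 and Trap1 at 0.24 were the largest of them. For Hspd1 the mean over its probes was 0.07. The 12 endoplasmic reticulum chaperones and stress genes had a median of 0.01, with Calr, the calcium-binding chaperone calreticulin, at 0.48.

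Promoters of the named genes were read for the sites that these factors are known to bind, from 250 bases before to 50 after the start in RefSeq (GRCm38.p6), and 17 of 22 genes had an entry. Shown as examples are 1 clock gene and 2 heat shock genes that held such a site, with the matching letters in capitals. The clock's E-box, CACGTG, lies 127 bases before the start of Tef, in chr15:81802423-81802722 on the plus strand. A 2-unit heat shock element, GAANNTTC, lies 104 bases before the start of Hspa1a, in chr17:34972107-34972406 on the minus strand. A 3-unit element, in which a further GAA follows the 2-unit one after any 2 bases, lies on the opposite strand 15 bases after the start of Hsph1, in chr5:149636266-149636565 on the minus strand.
Tef: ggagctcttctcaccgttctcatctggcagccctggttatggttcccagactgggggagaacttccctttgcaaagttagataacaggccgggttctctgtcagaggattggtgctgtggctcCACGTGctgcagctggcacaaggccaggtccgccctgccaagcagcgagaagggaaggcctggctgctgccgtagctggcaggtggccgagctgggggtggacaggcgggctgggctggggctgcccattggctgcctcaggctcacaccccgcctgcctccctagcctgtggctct
Hspa1a: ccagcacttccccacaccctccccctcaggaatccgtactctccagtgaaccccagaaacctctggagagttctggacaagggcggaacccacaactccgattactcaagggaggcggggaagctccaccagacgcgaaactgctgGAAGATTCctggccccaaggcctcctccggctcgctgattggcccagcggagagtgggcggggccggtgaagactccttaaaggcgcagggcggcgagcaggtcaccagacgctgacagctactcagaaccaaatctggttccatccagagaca
Hsph1: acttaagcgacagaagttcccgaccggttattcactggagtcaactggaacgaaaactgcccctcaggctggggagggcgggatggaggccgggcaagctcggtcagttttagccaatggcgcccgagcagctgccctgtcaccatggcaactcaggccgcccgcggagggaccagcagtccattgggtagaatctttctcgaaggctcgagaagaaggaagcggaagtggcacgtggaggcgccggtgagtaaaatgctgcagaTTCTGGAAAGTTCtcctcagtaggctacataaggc
Over 32851 promoters of the same 300 bases, counted on either strand, 7.15% held the E-box, 7.86% the 2-unit and 0.603% the 3-unit heat shock element. The E-box was also found in 1 of 2 promoters of Per1, in both of Hsph1 and in 1 of 2 of Hspd1, and not in those of Dbp, Usp2, Nr1d1 and Cry2. The 3-unit element was also found in a promoter of Hspd1, in that of Hspe1 and in that of Bst2. Hspb1 held the 2-unit element, and Stip1 held neither. Per2, Bhlhe40, Col1a1, Scx and Meox1 had no entry. The D-box bound by Dbp and Tef, TTANGNAA, was found in Per1, S100a8 and Ptgds and in 11.5% of all promoters, and the palindrome of corticosteroid receptors, ACANNNTGT, in S100a8 and in 6.85%. A match describes the letters and says nothing of binding.

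Of the genes of inflammatory cells, 2 of 5 measured neutrophil markers were at least 1.5-fold higher, beside 0.229% of all genes. S100a8, a subunit of the alarmin calprotectin, had 1578.5 in CM-MRKO DOC/salt and 888.5 in CM-MRKO vehicle hearts, a 1.72-fold difference, and 660.9 and 249.3 in WT DOC/salt and vehicle hearts. Each DOC/salt pool was above the vehicle pool of its genotype, and the CM-MRKO vehicle pool was above the WT DOC/salt pool. The WT log2 difference of S100a8 includes the dim WT vehicle array, and was 1.41 on deposited intensities and 0.94 after normalization. Retnlg, a resistin-like peptide of neutrophils, had 199.0 and 139.1 in CM-MRKO DOC/salt and vehicle hearts and 106.8 and 94.3 in WT hearts, the last pair under the limit of those arrays. S100a9, the partner of S100a8, differed by 0.21 (269.1 with DOC/salt and 226.0 with vehicle). The protease Mmp9 differed by 0.14 (140.4 and 126.3), and Lcn2, a granule protein, by -0.21 (145.9 and 150.2). Of 16 neutrophil markers 5 were measured, with a median of 0.21 and a summed intensity of 2332.9 in CM-MRKO DOC/salt, 1530.1 in CM-MRKO vehicle, 1178.9 in WT DOC/salt and 663.4 in WT vehicle hearts, and S100a8 makes up most of the CM-MRKO sums. The granule genes Ngp, Camp, Mmp8, Elane and Mpo and the receptors Csf3r and Cxcr2 were under the limit on both CM-MRKO arrays, and Ltf, lactoferrin, was above it with DOC/salt (130.1) and under it with vehicle (106.2). Whether the number of neutrophils differs was not tested.

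Macrophage and monocyte markers had a median of 0.06 over 11 genes with none past 1.5-fold, and summed to 17478.3 with DOC/salt and 17227.8 with vehicle. Among 19 chemokines, cytokines and adhesion molecules the median was 0.05 with none past 1.5-fold. Ccl8, a monocyte chemokine, differed by 0.50 (167.2 with DOC/salt and 130.0 with vehicle) and Il15, a lymphocyte growth factor, by 0.49 (478.7 and 341.6). Irf5, an interferon regulatory factor of myeloid cells, was 1.54-fold higher (163.9 and 121.5).

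Genes induced by interferon held the largest lower value but had no common direction. Ifi35 had 164.8 in CM-MRKO DOC/salt and 257.7 in CM-MRKO vehicle hearts, 2.09-fold lower, against 242.7 and 169.0 in WT DOC/salt and vehicle hearts. It was the 1 gene at least 1.5-fold lower on deposited intensities. Bst2, the membrane protein tetherin that holds budding viruses to the cell, had 173.5 and 221.7 in CM-MRKO DOC/salt and vehicle hearts (1.57-fold lower) and 308.6 and 215.1 in WT DOC/salt and vehicle hearts. For both genes CM-MRKO DOC/salt hearts had the lowest value of the 4 groups. The other interferon genes did not share their direction: over 23 genes the median was 0.07, 15 lay above 0, and 2 were past 1.5-fold. The GTPase Igtp differed by -0.37, while Oasl2 and the antiviral protein Ifitm3 differed by 0.31 and 0.29. The interferon-stimulated element, searched as GAAA, any 2 bases and GAAA, was found in the Bst2 promoter and not in that of Ifi35, and 3.44% of all promoters held it.

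Matrix genes were mixed. Col1a1, a chain of collagen type I, had 340.0 in CM-MRKO DOC/salt and 222.1 in CM-MRKO vehicle hearts (1.61-fold higher) and 249.3 and 179.1 in WT DOC/salt and vehicle hearts. Its partner chain Col1a2 was above the limit with DOC/salt (125.9) and under it with vehicle (113.8), and Col3a1 and Col5a2 were under it on both arrays. Col5a3 and Col5a1, minor fibrillar collagens, differed by 0.25 and 0.20, which gave the 3 measured fibrillar collagens a median of 0.25. Over 26 other matrix and crosslinking genes the median was -0.01 with none past 1.5-fold, Col6a1 at 0.29 and Col4a1 at -0.29. Fibroblast markers had a median of -0.11, with 2 of 12 above 0, beside 49.3% of all genes. They summed to 10320.9 with DOC/salt and 10413.5 with vehicle. Both markers past 1.5-fold were lower, namely Scx, a transcription factor of tendon and matrix-producing cells (150.6 with DOC/salt and 194.7 with vehicle), and Meox1, a homeobox factor of activated fibroblasts (411.5 and 564.1). Their part in the Col1a1 difference was not tested.

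Hypertrophy genes lay mostly below 0. Of 11 genes of the hypertrophic and fetal programme 2 lay above 0, beside 49.3% of all genes. The median was -0.17 and none passed 1.5-fold. Skeletal actin, Acta1, had 6174.2 in CM-MRKO DOC/salt and 8179.4 in CM-MRKO vehicle hearts (-0.48). Smooth muscle actin, Acta2, was lower on all 4 of its probes, by -0.35, -0.46, -0.53 and -0.61, its brightest probe reading 12095.8 with DOC/salt and 14684.8 with vehicle. The actin genes are near-identical in sequence, so their probes may share signal. The natriuretic peptide gene Nppa differed by 0.04 (19892.5 and 18315.6) and Nppb by -0.14 (12169.5 and 13116.9), and Xirp1, a protein of the intercalated disc, was the highest at 0.35. Rgs5, a pericyte marker, was 1.54-fold lower (431.7 with DOC/salt and 595.5 with vehicle). The other smooth muscle and pericyte markers ranged up to 0.39 for Pdgfrb. Over all 10 the median was 0.03, with 5 above 0 and 5 below. They summed to 22308.0 with DOC/salt and 24461.7 with vehicle, and Acta2 makes up most of both sums.

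Known targets of corticosteroid receptors had no common direction. Over 17 genes the median was -0.04, 8 lay above 0 and 1 passed 1.5-fold. Ptgds, prostaglandin D2 synthase, had 356.3 in CM-MRKO DOC/salt and 241.8 in CM-MRKO vehicle hearts (1.52-fold higher) and 231.5 and 181.7 in WT DOC/salt and vehicle hearts. Sgk1, the kinase through which the receptor raises sodium uptake in kidney, had 2248.8 with DOC/salt and 2748.3 with vehicle (-0.38). Ddit4, an inhibitor of mTOR, differed by -0.48, the cell cycle inhibitor Cdkn1a by -0.40 and the metallothionein Mt1 by 0.35. Cdkn1a averaged -0.22 over its probes. Per1, in this list and among the clock genes, differed by 0.15. The genes of the sodium pump and of cation transport were above 0 in 10 of 12 cases, beside 49.3% of all genes. Their median was 0.13, with none past 1.5-fold. The potassium-chloride cotransporter Slc12a7 was highest at 0.52 (236.4 with DOC/salt and 173.4 with vehicle), then Nedd4l, a ubiquitin ligase for sodium channels, at 0.30 and the pump subunit Atp1b1 at 0.25. The epithelial sodium channel genes Scnn1a, Scnn1b and Scnn1g were under the limit.

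Signalling, metabolism and excitation each held 1 or 2 genes past 1.5-fold beside medians near 0. Of the insulin and mTOR pathway Eif4ebp2, which represses cap-dependent translation, had 221.1 with DOC/salt and 311.7 with vehicle (1.69-fold lower), and Pdpk1, the kinase that activates AKT and SGK1, had 244.4 and 335.7 (1.61-fold lower), while the median over 16 genes was -0.06. Gsk3b, a kinase restrained by AKT, differed by -0.41 and Deptor, an mTOR inhibitor, by 0.24. Pcyt1a, which makes CDP-choline for phosphatidylcholine, had 122.6 and 157.5 (1.72-fold lower), close to the limit, in a phospholipid list with a median of -0.09 over 11 genes. Gstt2, a glutathione transferase, had 216.2 with DOC/salt and 131.4 with vehicle (2.02-fold higher) and 194.2 and 127.1 in WT DOC/salt and vehicle hearts. Its WT log2 difference, which includes the dim WT vehicle array, was 0.61 on deposited intensities and 0.4 after normalization. The 15 glutathione transferases had a median of 0.03. Cacna2d1, a calcium channel subunit, had 343.6 and 485.7 (1.61-fold lower) among 21 calcium and ion channel genes with a median of 0.03, where Kcnip2, a subunit of the transient outward potassium channel, differed by 0.43. Tbl1x, part of the NCoR corepressor complex, had 125.2 with DOC/salt and 181.9 with vehicle (2.07-fold lower), also close to the limit, in a list of 14 corepressor and chromatin genes with a median of 0.01.

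The contractile and energy-producing genes hardly differed. Over 46 oxidative phosphorylation genes the median was 0.01, and over 20 sarcomere and Z-disc genes 0.02, with none past 1.5-fold in either list. Troponin I, Tnni3, and the Z-disc protein Myoz2 were the highest sarcomere genes at 0.35 and 0.34. Of 40 lists 35 had 3 or more measured members. Their medians ran between -0.18, for red cell markers, and 0.36, for clock outputs, 25 of them lay within 0.1 of 0, and 21 lists held no gene past 1.5-fold.

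**Figure D3:**
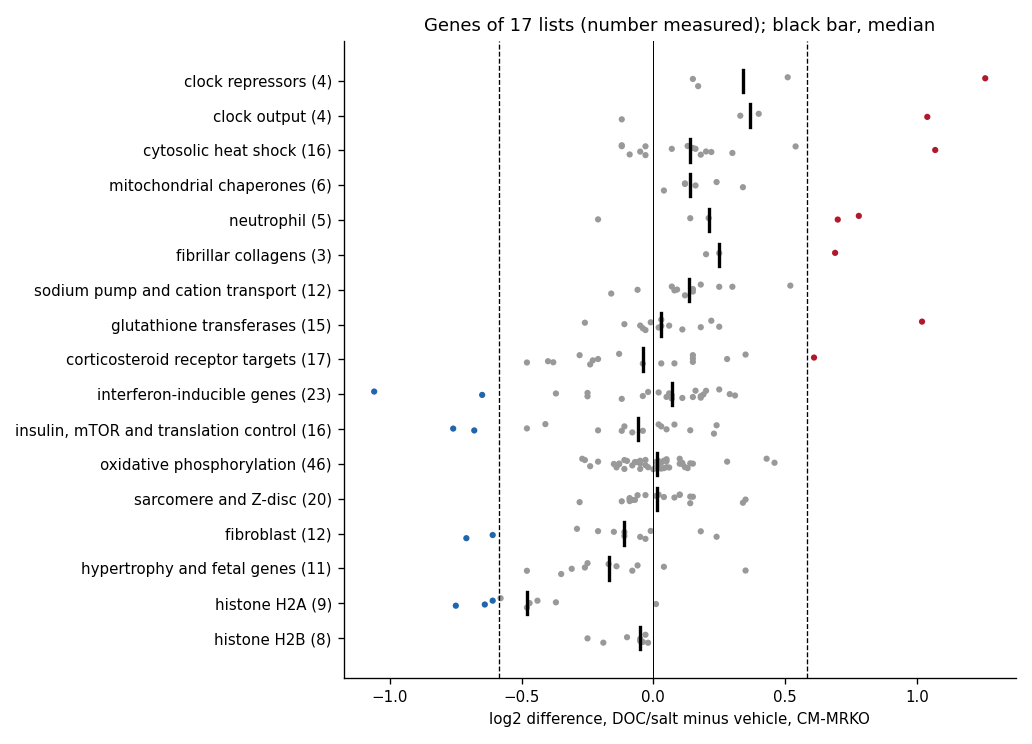
Log2 difference of DOC/salt minus vehicle in CM-MRKO hearts (horizontal axis) for the measured genes of 17 lists (rows), 1 point a gene, with the number of genes in brackets and a black bar at the median. Red and blue points are past the dashed lines at 1.5-fold. Clock repressors and outputs other than Nfil3 lie right of 0, 8 of 9 histone H2A genes lie left of it, and the larger lists centre on 0.

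Genes of the replication-dependent histone clusters, chosen after their values were seen, gave the lowest median of any group examined. Of 9 measured H2A genes 8 lay below 0, with a median of -0.48, and 3 were at least 1.5-fold lower, beside 0.344% of all genes. H2ac7 had 298.4 in CM-MRKO DOC/salt and 431.6 in CM-MRKO vehicle hearts, H2ac12 337.4 and 464.9, and H2ac22 171.2 and 215.1. The brightest pair followed closely, with H2ac24 at 1841.4 and 2577.2 (-0.58) and H2ac20 at 2268.6 and 2751.3 (-0.37). The H2A genes are near-identical in their coding sequence, so these probes may read shared transcripts, which was not tested. They cannot be taken as 9 separate measurements. All 8 H2B genes (median -0.05), all 5 H4 genes (-0.11) and both linker H1 genes (-0.12) lay below 0 after normalization. Of 5 H3 genes (0.07) 1 did, and over all genes 49.3% lay above 0. On deposited intensities the medians of H2B, H4 and H1 were 0.04, 0.0 and 0.0, while that of H2A was -0.3. Nothing is read from the small values outside H2A. Of 20 histone members outside H2A none was past 1.5-fold. The 55 cytosolic ribosomal protein genes, a bright group also chosen after values were seen, had a median of 0.02.

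Of the remaining genes past 1.5-fold, most are single genes of different functions. Higher with DOC/salt were Lsm12, an RNA-binding adaptor (1.78-fold), Tada3, a subunit of histone acetyltransferase complexes (1.7-fold), Ppp2r5b, a regulatory subunit of phosphatase 2A (1.59-fold), Rbms3, an RNA-binding protein (1.56-fold), and Pkd1, polycystin-1 (1.5-fold). Lower were Zdhhc14, a palmitoyltransferase (1.64-fold), G3bp2, a stress granule protein (1.63-fold), Ammecr1l (1.6-fold), Osbpl3, an oxysterol-binding relative (1.57-fold), Mad1l1 of the spindle checkpoint (1.56-fold), Abcb1b, a drug efflux pump (1.52-fold), Ackr3, a scavenging chemokine receptor (1.51-fold), and Ift122 of ciliary transport (1.5-fold).

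Other probes of the same gene are the one check on these values that the arrays hold. Of the 6109 genes, 1256 had 2 or more measured probes and 4853 had 1. For the 2 brightest probes of a gene the log2 differences had the same sign in 705 genes (56.1%) and a Pearson correlation across genes of 0.15, and genes are not independent replicates. The technical spread of a log2 difference, taken from the disagreement of these probes, was 0.17 beside the SD of 0.19 over all genes; it holds no spread between animals. The spread was 0.19 in the dimmest and 0.14 in the brightest of 3 equal groups of these genes.

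Of the 35 genes past 1.5-fold, 4 had a second measured probe. Per2 differed by 1.26 and 0.26 on its probes, the second reading 147.6 with DOC/salt and 126.8 with vehicle. For Lsm12 the values were 0.83 and 0.02. The 3 probes of G3bp2 gave -0.70, 0.02 and -0.65, which made it the single gene with 2 probes past 1.5-fold the same way. Osbpl3 differed by -0.65 and 0.36, with opposite signs. Single probes that were not a gene's brightest passed 1.5-fold in 11 cases, the dim G3bp2 probe included, all of them lower and 8 with the sign of the brightest probe. Among them, chosen after their values were seen, were Ccnd1, cyclin D1, at -0.71 beside -0.10 on its brightest probe, and Dcn, decorin, at -0.65 beside -0.11.

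Some genes of smaller difference, chosen after their values were seen, had probes that gave like values. Of the 1256 genes with 2 or more measured probes, all probes were higher in 327, all lower in 297, and 632 were mixed. In 14 of the 1256 every probe was beyond 0.3 the same way, 6 higher and 8 lower. These 14 were picked because their probes agree, so that agreement is no check on them. Mef2c, a transcription factor of heart muscle, differed by -0.39 and -0.42 on its 2 probes, Igsf1 by -0.42 and -0.44, and the histone demethylase Kdm6a by -0.43 and -0.37. The 3 probes of Eef2, the elongation factor of translation, gave -0.48, -0.38 and -0.61, with 582.4 and 749.9 on the brightest in DOC/salt and vehicle hearts. Higher on both probes were Tef (0.40 each), Napsa, an aspartic protease (0.54 and 0.39), the galectin Lgals9 (0.46 and 0.36) and the scaffold protein Men1 (0.36 and 0.43).

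**Figure D4:**
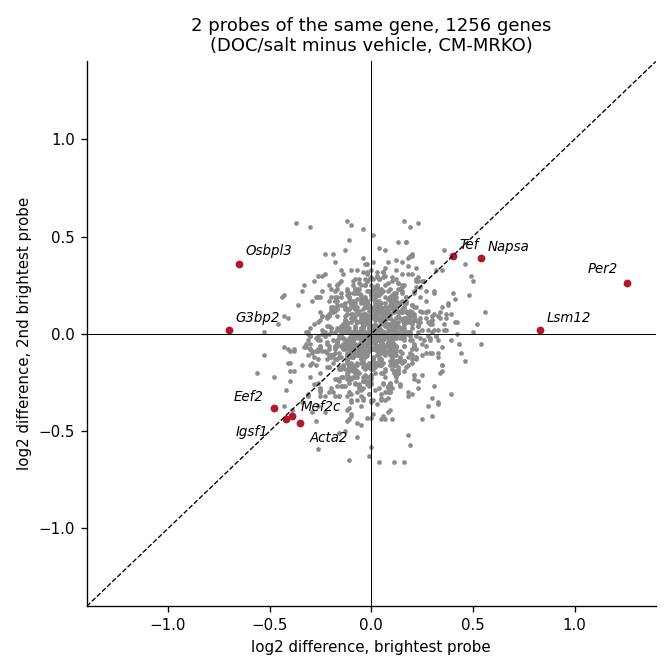
Log2 difference of DOC/salt minus vehicle in CM-MRKO hearts on the brightest probe (horizontal axis) and the second brightest probe (vertical axis), 1 point for each of 1256 genes, with a dashed line of equality. Named genes are red. Tef, Mef2c, Igsf1, Acta2 and Eef2, picked from genes whose probes gave like values, lie near the line. Per2, Lsm12, G3bp2 and Osbpl3 lie far from it.

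In WT hearts the same 35 genes had the same sign in 15 cases and the opposite sign in 20, beside 49.7% with the same sign over all genes. Past 1.5-fold in WT, 4 genes went the same way and 5 the opposite way, beside 8.43% of all genes higher and 3.63% lower in WT. Those that went the same way included S100a8, whose log2 difference was 0.78 in CM-MRKO and 0.94 in WT, and Meox1, with -0.61 in CM-MRKO and -0.78 in WT. Dbp differed by 1.04 in CM-MRKO and 0.36 in WT after normalization, but by 1.03 and 0.95 on deposited intensities. Per2 differed by 1.26 and 0.56 after normalization, and by 0.88 and 0.62 on deposited intensities. Col1a1 differed by 0.69 in CM-MRKO and 0.0 in WT after normalization, but by 0.61 and 0.48 on deposited intensities. Meox1 differed by -0.46 and -0.05 on deposited intensities, so the size of these WT responses depends on how the arrays are scaled.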

How the data were processed

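Whole-heart RNA from 4 groups, 1 pool of 8 animals each, was measured on Illumina mouse bead arrays. The table deposited by the authors holds linear intensity values with background left in and no visible normalization; the submitters' processing notes name Partek, without version or role, and nothing more. Groups come from the sample titles, since the treatment protocol label names vehicle for all 4 samples. A second table was not used, as its 4 value columns match no sample label.

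The platform annotation gave 1 symbol to 23978 of 25697 probes, several to 0 and none to 1719; 23962 matched the gene table of GRCm38.p6 and 0 symbols changed. Intensities were corrected with normexp (maximum likelihood, offset 16), quantile-normalized over 4 arrays and log2-transformed in limma 3.58.1 under R 4.3.3; other steps used Python 3.11.15. Each gene was represented by its brightest measured probe, and a difference is DOC/salt minus vehicle, counted at 1.5-fold with no test. The scripts were tested on simulated data in which only probes well above the limit were changed, so recovery for genes near it was not covered. The number of arrays limits the precision.

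Named genes are the 15 largest differences per direction without clone or predicted names, and genes with at least 2 probes past 1.5-fold the same way. They also include genes past it on deposited intensities and up to 6 members of each described list. Nr3c1, Nr3c2, Hsd11b2, Sgk1, Nppa, Nppb, Myl2, Col1a1 and S100a8 were named as well. Abcb1b, Ackr3 and Ift122 were named because they were past 1.5-fold. Other genes were chosen after their values were seen, and not all are marked so. Members and lists were chosen with earlier results of these data known. Alternatives changed the background correction, offset, scaling, arrays normalized together, detection rule and probe summary.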

Additional observations from a re-analysis of the deposited data

Results flagged for a closer look

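In 5 of the 35 genes past 1.5-fold in CM-MRKO hearts, the WT response was past 1.5-fold in the opposite direction. Over all 6109 genes, 8.43% were at least 1.5-fold higher and 3.63% lower in WT. On deposited intensities only Hspa1a was past 1.5-fold in both genotypes in opposite directions. With 1 pool per group the difference between the genotypes was not tested, and each value includes the dim WT vehicle array. For Hspa1a the CM-MRKO response minus the WT response was 3.07 on the log2 scale (1.07 in CM-MRKO and -1.99 in WT; 0.78 and -0.82 on deposited intensities), with the WT DOC/salt value under the detection limit. Ppp2r5b gave 1.33 (0.67 and -0.66) and Pkd1 gave 1.23 (0.59 and -0.64). On deposited intensities, however, their WT differences were -0.07 and -0.03, and their CM-MRKO differences 0.47 and 0.44, short of 1.5-fold. G3bp2 gave -1.3 (-0.7 and 0.59) and Abcb1b gave -1.24 (-0.6 and 0.63). On deposited intensities G3bp2 differed by -0.56 in CM-MRKO and 1.15 in WT, and Abcb1b by -0.31 and 0.63. Both CM-MRKO values are short of 1.5-fold. The WT vehicle intensity of G3bp2, 378.5, was the lowest of the 4 groups, and its probes disagreed in CM-MRKO, as given above.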

How the results depend on the processing

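Under 9 alternatives, the 35 genes past 1.5-fold kept their direction wherever they were measured. Dbp, S100a8 and Ifi35 stayed past 1.5-fold in all 9. Per2, Hspa1a and Gstt2 did so in 8, and were lost under the stricter limit, where their vehicle values were too dim. The counts themselves depend on the background correction. Beside 14 higher and 21 lower genes, quantile normalization without background correction left 5 higher and 3 lower, the deposited intensities 7 and 1, and an offset of 50 left 6 and 6. Each of these settings keeps more background in the values. The deposited intensities also lack scaling, with a median fold of 1.06 over all genes. The part of each in the counts was not tested. Requiring probes above the brightest receptor probe gave 5 higher and 16 lower genes of 4988 tested, where 9 of the 14 higher and 5 of the 21 lower genes were no longer measured. Accepting genes above the limit on at least 1 array gave 44 higher and 30 lower genes of 6687; these settings test fewer and more dim genes. Scaling to the median of all probes gave 20 higher and 20 lower genes, scaling to the median of the measured probes 14 and 26, and normalizing the CM-MRKO arrays alone 15 and 23. Of 2275 recomputed values of named genes 98 moved by more than the technical spread and 0 reversed. Of 360 list medians 3 moved: clock repressors to 0.17 and fibrillar collagens to 0.44 under the stricter limit, and H2A genes to -0.3 on deposited intensities. Most list medians are smaller than that spread, so this count does not show that they are stable. On deposited intensities, where the median over all genes was 0.08, some changed sign. Corticosteroid receptor targets went from -0.04 to 0.05 and insulin and mTOR genes from -0.06 to 0.04. Hypertrophy genes went from -0.17 to -0.09 and fibroblast markers from -0.11 to -0.01. No paired analysis was possible because each group is 1 pool. With single pools, spread between animals is unknown, and a gene near the limit has little signal over background.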
